A study of Mus musculus with 16 samples.

Results

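The 10 amplicons described here come from a panel of 663 used to read DNA methylation in single mouse cells, and were listed because their methylation differed between old and young bone marrow. The list was chosen on measured values of the same old and young libraries, so those values are given as a description and carry no test. In old marrow 8 of the 10 had a lower share of methylated cells than in young marrow (AMPL376318, AMPL371479, AMPL388687, AMPL388628, AMPL365981, AMPL371491, AMPL376854 and AMPL365903), called the lower amplicons from here on. The other 2 had a higher share in old marrow (AMPL365990 and AMPL371788), and are called the higher amplicons. The files used here name amplicons by panel identifier only, so no gene, position or sequence is given for any of them.

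Methylation was measured with scTAM-seq, run on a Mission Bio Tapestri machine that encloses single cells in droplets and amplifies chosen genomic targets in each. A restriction enzyme that cannot cut methylated sites digests the DNA first, so an amplicon yields reads in a cell when its CpG was methylated there. The measure throughout is the share of cells of a library with at least 1 read of an amplicon. Blood is made by hematopoietic stem cells in the bone marrow, which give rise to progenitors and then to mature cells. CpG methylation is copied at cell division, differs between blood cell types, and is known to drift at many sites with age.

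The groups were 2 old and 2 young libraries of native bone marrow, a further native bone marrow library, 1 bone marrow library of a transplantation experiment, and LARRY libraries. LARRY is a lineage tracing method in which a lentivirus inserts a DNA barcode into each stem cell, and its descendants inherit the barcode. LARRY bone marrow came from 2 mice of a replicate experiment and 4 mice of a main experiment, and 4 more LARRY libraries held mature myeloid cells of lung, mature myeloid cells of bone marrow and blood, mature immune cells of marrow and spleen, and lung endothelial cells. The labels give no strain, sex, age in weeks, cell sort or pooling of animals, and call the cells of every library immune cells, the endothelial library included. With marrow as a mixture, a different mix of cell types and a different methylation within a type cannot be told apart.

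The 16 libraries held 95930 cells, with 3385 to 10059 cells and 106730790 to 462153992 reads each. Median reads per cell ranged from 14693 to 89971, and were 29540 and 50356 in the old libraries, against 28569 and 27421 in the young libraries. The 77 amplicons with a read in 90% or more of the cells in each library were detected in 97.2% to 98.97% of cells on average. Of any pair of libraries, 5 to 40 cell barcodes were shared, at most 0.755% of the smaller library. Exact 95% binomial intervals on the shares below were 0.406 to 3.31 percentage points wide. They cover counting error within a library only.

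Among the lower amplicons, AMPL376318 was farthest apart. It was read in 19.0% and 14.9% of cells of the old libraries, against 43.2% and 70.7% of cells of the young libraries. The old mean was 16.9% ± 2.94 and the young mean 57.0% ± 19.4 (SD, n = 2 each), a difference of -40.0 percentage points. The old libraries were close to each other and the young libraries were far apart, with no overlap.

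AMPL371479 was read in 57.2% and 46.8% of old cells, against 76.0% and 94.6% of young cells. AMPL388687 was read in 14.6% and 11.6% of old cells, against 31.1% and 55.1% of young cells. AMPL388628 was read in 63.5% and 53.6% of old cells, against 79.8% and 92.2% of young cells. In all of these, young library 2 was the highest of the aging libraries and old library 2 the lowest.

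AMPL365981 was read in 26.5% and 24.6% of old cells, against 44.7% and 59.4% of young cells. AMPL371491 was read in 54.6% and 48.1% of old cells, against 72.5% and 81.2% of young cells. AMPL365903 was read in 75.7% and 71.9% of old cells, against 88.2% and 91.1% of young cells. These again had old library 2 lowest and young library 2 highest. AMPL376854 had the other order within each group, at 7.30% and 15.6% of old cells, against 36.3% and 29.0% of young cells.

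The higher amplicons were read in few cells of young marrow. AMPL365990 was read in 16.8% and 38.1% of old cells, against 9.48% and 10.1% of young cells, a difference of 17.6 points. AMPL371788 was read in 14.6% and 30.1% of old cells, against 5.35% and 9.18% of young cells, a difference of 15.1 points. Old library 2 was far above old library 1 in both, and it was also the more deeply read library.

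The libraries of the 2 ages did not overlap at any of the 10 amplicons. Over all 579 amplicons with a mean share of 2% to 98%, the libraries did not overlap with old lower at 111 (19.2%) and with old higher at 141 (24.4%). Since the list was drawn from this contrast, nothing is read from that. The median difference was -27.0 points over the lower amplicons, 16.4 points over the higher amplicons and 1.36 points over all amplicons tested. The list holds 7 of the 10 largest falls of the panel and 1 of the 10 largest rises. All differences kept their sign when reads were thinned to 1 number per cell.

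The amplicons differ in how many reads stand behind a call. Median reads in cells with a read ranged over libraries from 37 to 252 at AMPL365903 and from 30 to 163 at AMPL371479. At AMPL388687 they ranged only from 2 to 12.5, and 7.04% to 42.9% of its read cells had a single read. With a call at 5 reads its shares were 5.55% and 4.27% in old marrow, against 12.7% and 22.8% in young marrow, a difference of -12.9 points in place of -30.0.

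The remaining bone marrow libraries were not used to choose the list. Their position against old and young was counted at the listed amplicons only, which were chosen for a difference between these. Nothing is therefore read from the counts of positions below. The native library, which has no replicate, lay farther from old than both young libraries did at 8 of the 10 amplicons. It had AMPL376318 in 79.7%, AMPL371479 in 97.7% and AMPL388687 in 86.4% of cells. At the higher amplicon AMPL365990 it had the lowest marrow value, 2.84%. Its exceptions were AMPL376854 at 24.5%, between old and young, and AMPL371788 at 8.28%, within the young range.

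The transplantation library, also single, lay between old and young at 7 of the 10. It had AMPL376318 in 30.7%, AMPL371479 in 65.1% and AMPL388687 in 17.4% of cells. At AMPL365981 (21.1%) and AMPL376854 (5.38%) it was lower than both old libraries, and at AMPL365990 (5.27%) lower than both young libraries.

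The LARRY marrow libraries were spread over these positions. Of 60 values (6 libraries, 10 amplicons), 30 lay between old and young, 17 within the young range, 6 beyond young and 7 within the old range. AMPL376318 ranged from 38.6% to 47.1% over these libraries and AMPL371479 from 74.4% to 80.8%. The widest LARRY range was that of AMPL388687, which was read in 16.2% and 37.0% of cells of the replicate mice and in 23.9% to 28.4% of cells of the main mice.

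In single libraries of mature and lung cells some amplicons lay on the old side and others on the young side. Mature myeloid cells of marrow and blood had AMPL376318 in 15.96% of cells, within the old range, but AMPL365903 in 91.7%, above both young libraries. Mature immune cells of marrow and spleen had AMPL376854 in 2.69% of cells, lower than both old libraries, and AMPL365903 in 95.1%. Lung endothelial cells lay outside the range of all other libraries at 6 amplicons. They were above it at AMPL376318 (99.4%), AMPL371788 (97.97%) and AMPL371491 (95.7%), and below it at AMPL365903 (27.3%), AMPL365981 (14.2%) and AMPL365990 (2.00%).

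Over the 12 libraries that are neither old nor young, AMPL365903 differed in level pattern from most other lower amplicons. All 28 pairs of lower amplicons had a median Pearson r of 0.562 on logit shares (range -0.768 to 0.962). The median over all pairs on the panel was 0.146. The 21 lower pairs without AMPL365903, set apart after its values were seen, had a median of 0.732 (range -0.0992 to 0.962). Its own 7 pairs with lower amplicons had a median of -0.422 (range -0.768 to 0.613), and 5 of them were below 0. Pairs from opposite sides could be as close as lower pairs, with r = 0.857 for AMPL376318 with AMPL371788 and 0.765 for AMPL371491 with AMPL371788. The median over lower amplicons was 0.435 with AMPL371788 and -0.515 with AMPL365990, and the pair of higher amplicons had r = -0.381. These are descriptions over libraries that partly share a tissue of origin, and the endothelial library, far from the rest at AMPL376318, AMPL371788 and AMPL365903, is among them. So is the native library, which had the highest share of these libraries at AMPL371479 and AMPL388687. The amplicons off the list with the levels most like the lower amplicons were AMPL388787, AMPL376300 and AMPL371271, with mean r of 0.57, 0.56 and 0.55. For the higher amplicons they were AMPL366182, AMPL371231 and AMPL371418, with mean r of 0.44, 0.43 and 0.42.

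The LARRY replicate and main experiments gave a comparison that had no part in choosing the list. The labels give no age for either experiment. The higher amplicons were both higher in the replicate experiment, and none of the 8 lower amplicons passed the test. AMPL365990 was read in 14.1% and 14.0% of cells of the replicate mice, against 6.28%, 5.01%, 6.70% and 6.47% of cells of the main mice. The groups did not overlap, and the log odds was higher by 0.924 (SE 0.134, edgeR quasi-likelihood test, Benjamini-Hochberg adjusted p = 0.0115). AMPL371788 was read in 16.5% and 16.9% of cells of the replicate mice, against 9.93%, 9.44%, 9.68% and 9.51% of cells of the main mice. Its log odds was higher by 0.629 (SE 0.107, edgeR adjusted p = 0.0120), again without overlap. Lack of overlap was not counted over the panel for these experiments, so nothing is read from it.

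Those 2 calls have to be read against a shift of the whole panel. Of 596 amplicons tested with edgeR, 184 (30.9%) were higher in the replicate experiment and 3 (0.503%) lower, and the median difference in log odds was 0.4658. The share of listed amplicons called, 2 of 10, is not above that background. With the median difference set to 0, neither was called, at 0.459 for AMPL365990 (edgeR adjusted p = 0.109) and 0.164 for AMPL371788 (edgeR adjusted p = 0.372). Without replicate mouse 2 the differences were 0.929 and 0.616, close to those above, and neither was called (edgeR adjusted p = 0.0646 and 0.0722).

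Among the lower amplicons, AMPL376854 was read in 10.05% and 17.15% of replicate cells, against 7.95% to 10.2% of cells of the 4 main mice (log odds 0.409, SE 0.1998, edgeR adjusted p = 0.147). Its log odds difference ranged from 0.0995 to 0.716 with single libraries left out. AMPL365981 was read in 31.3% and 38.4% of replicate cells, against 32.5%, 28.1%, 26.9% and 26.5% of main cells (log odds 0.290, SE 0.152, edgeR adjusted p = 0.172). The other 6 had differences of -0.0662 to 0.128 with edgeR adjusted p of 0.594 to 0.987, and SE of 0.137 to 0.301. The median over the 10 amplicons was 0.127, against the panel's 0.4658.

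Surface proteins were stained in 4 of the marrow libraries, LARRY main mice 3 and 4, LARRY replicate mouse 1 and the native library, and none of these is an old or young library. Each antibody carries a DNA tag that is counted with the amplicons. Cells with at least 100 tag molecules (UMI) were used, 32.9% to 66.2% of each library. CD48 and c-Kit, which mark progenitors, had medians of 12 to 42 and 5 to 14 UMI per cell. CD150 had a median of 1 UMI per cell and CD27 of 1 to 6. Ranks were taken after centring each cell on the mean of its tags. At counts this low a cell's rank depends on its other tags as well. Cells called high or low in a protein below are so by this rank. The native library had 4 tags, without CD27. Its counts were centred over those 4, and those of the LARRY libraries over 19 or 20. The native r is therefore not quite the same measure as the LARRY r. For each amplicon the correlation r between being read and the protein's rank was taken within a library, given read depth and detection of the 77 amplicons read in nearly all cells, and tested over libraries.

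Of 190 pairs of a listed amplicon with a protein, 53 were called with limma at an adjusted p below 0.05, against 18.8% of the 11267 pairs on the panel. The correlations were small. AMPL371491, AMPL388628 and AMPL376854 were called with none of the 19 proteins. Many calls rest on few libraries and on the handling of the protein counts. Of the 53 calls, 14 remained without main mouse 3, 21 without main mouse 4 and 53 without replicate mouse 1, and none of them turned in sign or had an absolute r over 1.5 times smaller without either main mouse. Without the minimum of 100 UMI 28 remained, and with uncentred protein counts 36, with an absolute r over 1.5 times smaller for 34 and 21 of the 53.

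CD150 is a SLAM family receptor that marks stem cells. Of the higher amplicons AMPL371788 was read more often in cells with more of it, and AMPL365990 missed the threshold. AMPL371788 was read in 17.8%, 19.0%, 29.4% and 10.5% of the 25% of cells highest in CD150 in main mouse 3, main mouse 4, replicate mouse 1 and the native library, against 6.58%, 7.44%, 9.54% and 7.09% of the 25% lowest. Its r with CD150 was 0.139 (SE 0.0250 on the Fisher z scale, limma adjusted p = 0.00891). AMPL365990 was read in 15.2%, 14.0% and 32.2% of the highest 25% of cells in the same 3 LARRY libraries, against 5.98%, 6.25% and 8.89% of the lowest 25%. In the native library it was read in 2.16% of cells at both ends, and its r over the 4 libraries was 0.120 (SE 0.0354, limma adjusted p = 0.0523). It was called under 5 of 13 alternatives. Its r was 0.161 without the native library and 0.0758 without replicate mouse 1 (limma adjusted p = 0.0106 and 0.00489), and 0.118 without main mouse 3 and 0.126 without main mouse 4 (limma adjusted p = 0.140 for both).

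AMPL365903, a lower amplicon, ran the other way. It was read in 81.8%, 75.9%, 77.2% and 89.8% of the 25% of cells highest in CD150, against 94.6%, 90.2%, 95.1% and 97.5% of the 25% lowest, in the same order of libraries. Its r was -0.146 (SE 0.0175, limma adjusted p = 0.00229), with the same sign in 4 of 4 libraries. AMPL376318 had a small positive r of 0.0430 (SE 0.0113, limma adjusted p = 0.0370). It missed the threshold under 9 alternatives, among them leaving out main mouse 3 (limma adjusted p = 0.2004) and the native library (limma adjusted p = 0.0627). Of the lower amplicons not called, AMPL371479 had r = -0.0614 and AMPL388628 -0.0501, both negative in 4 of 4 libraries (limma adjusted p = 0.0656 and 0.122). The r of AMPL388687 was 0.0284, of AMPL365981 0.00720, of AMPL371491 -0.0293 and of AMPL376854 -0.00114 (limma adjusted p of 0.273 to 0.966). AMPL371479 was called under 3 alternatives and AMPL388687 under 2. Over the panel, 13% of amplicons were called positive with CD150 and 9.44% negative, against 2 and 1 of the 10.

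CD27, a receptor of the TNF receptor family found on many multipotent and lymphoid progenitors, was positive for AMPL365903 and negative for both higher amplicons and AMPL388687. AMPL365903 was read in 94.8%, 91.1% and 95.5% of the 25% of cells highest in CD27, against 78.8%, 75% and 79.9% of the 25% lowest, in main mouse 3, main mouse 4 and replicate mouse 1 (r = 0.173, SE 0.0152, limma adjusted p = 0.00156). AMPL371788 was read in 6.58%, 5.95% and 7.86% of the highest 25% of cells, against 20.5%, 20.5% and 22.2% of the lowest 25% (r = -0.148, SE 0.0149, limma adjusted p = 0.00211). AMPL365990 had r = -0.0925 (limma adjusted p = 0.0100) and AMPL388687 r = -0.0693 (limma adjusted p = 0.0369). Not called were AMPL376318 (r = -0.0504), AMPL365981 (-0.0443), AMPL371491 (-0.00581), AMPL371479 (0.0247), AMPL388628 (0.0238) and AMPL376854 (0.0275), at limma adjusted p of 0.0651 to 0.823. AMPL376318 was called under 4 alternatives, and AMPL365981, AMPL371479 and AMPL376854 under 1 each. With 1 positive and 3 negative calls among the 10, the panel background was 13.7% and 16%. The negative values depended on how the protein counts were scaled. With uncentred counts AMPL371788 had r = -0.00892 (limma adjusted p = 0.738), AMPL388687 -0.00220 (limma adjusted p = 0.941), and AMPL365990 turned to 0.0452 (limma adjusted p = 0.0862), while AMPL365903 kept r = 0.160 (limma adjusted p = 0.000448). With total protein as a further covariate AMPL371788 had r = -0.0983 (limma adjusted p = 0.00400), but AMPL388687 had -0.0489 (limma adjusted p = 0.0660) and AMPL365990 -0.0390 (limma adjusted p = 0.180). AMPL388687 missed the threshold under 8 of 12 alternatives, among them leaving out main mouse 3 or main mouse 4 (limma adjusted p = 0.195 and 0.0531). AMPL365990 also missed it without either of these mice (limma adjusted p = 0.0807 and 0.0659).

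ESAM, CD48 and CD201 were called with opposite signs for the higher amplicons and AMPL365903. Other stem cell proteins were not, since c-Kit was negative for all 3 and Sca-1 was called for AMPL365990 alone of them. ESAM, an adhesion molecule of endothelium and stem cells, gave the largest r of both higher amplicons, 0.263 for AMPL365990 (SE 0.0352, limma adjusted p = 0.00439) and 0.205 for AMPL371788 (SE 0.0173, limma adjusted p = 0.00139). In the 3 libraries with the tag AMPL365990 had 0.204, 0.211 and 0.368, and AMPL371788 had 0.171, 0.212 and 0.233. AMPL365903 had r = -0.0934 with ESAM (limma adjusted p = 0.0277), and -0.0457 with uncentred counts (limma adjusted p = 0.152). The panel background was 22.4% positive and 5.4% negative, against 2 and 1 of the 10.

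CD48, a SLAM family protein that most stem cells lack, was negative for AMPL365990 (r = -0.229, limma adjusted p = 0.0356) and AMPL371788 (r = -0.168, limma adjusted p = 0.00750), and positive for AMPL365903 (r = 0.122, limma adjusted p = 0.0183). By library AMPL365990 had r of -0.265, -0.223 and -0.419 in the LARRY libraries and 0.0125 in the native library, and it was not called without main mouse 3 or main mouse 4 (limma adjusted p = 0.107 and 0.114). With uncentred counts AMPL365990 had r = -0.0900 (limma adjusted p = 0.122) and AMPL371788 -0.0306 (limma adjusted p = 0.296). The background with CD48 was 18.9% negative and 6.91% positive. CD201, the endothelial protein C receptor carried by stem cells, was positive for AMPL365990 (r = 0.0860) and AMPL371788 (r = 0.0828) and negative for AMPL365903 (r = -0.0855), with limma adjusted p of 0.0380, 0.00993 and 0.00972. The background with CD201 was 5.56% positive and 6.75% negative. Without the minimum of 100 UMI the sign with CD201 turned for AMPL365990 (r = -0.00567, limma adjusted p = 0.883), and AMPL371788 had r = 0.0119 (limma adjusted p = 0.690). None of the 3 was called with CD201 without main mouse 3 or without main mouse 4 (limma adjusted p of 0.0518 to 0.0902).

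Several proteins were called positive for the lower amplicons AMPL371479, AMPL388687 and AMPL365981. CD127, the interleukin 7 receptor chain, was positive for these and for AMPL376318, with r of 0.0805, 0.101, 0.0948 and 0.0825, against a background of 12.1%. CD135, the Flt3 receptor, was positive for the same 3, with r of 0.0815, 0.0705 and 0.0731, against a background of 7.93%. CD34, a sialomucin of progenitors, had r of 0.0798, 0.106 and 0.0737, against a background of 10.1%. CD115, the receptor of colony stimulating factor 1 on monocytes and their progenitors, had r of 0.0867, 0.0911 and 0.0560, against a background of 12%. All of these had a limma adjusted p from 0.00590 to 0.0374. Without the minimum of 100 UMI the r with CD135 was 0.0295, 0.0285 and 0.0305 (limma adjusted p of 0.334 to 0.358), and AMPL388687 was called with CD135 under 8 of 13 alternatives. The higher amplicon AMPL371788 had r as large with CD127 (0.107, limma adjusted p = 0.0531) and CD34 (0.101, limma adjusted p = 0.0697), but was not called.

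The remaining calls were with proteins of other lineages. CD9, a tetraspanin of megakaryocytes and platelets, was negative for AMPL371479 (r = -0.101), AMPL388687 (r = -0.0769) and AMPL365981 (r = -0.0778), against a background of 6.41%, and with uncentred counts AMPL388687 turned to 0.0168 (limma adjusted p = 0.452). CD41, the platelet integrin alpha chain, was positive for AMPL371788 (r = 0.0891, background 5.73%) and negative for AMPL371479 (r = -0.0744, background 5.06%). CD61, its beta chain, was negative for AMPL376318 (r = -0.0768, background 6.58%). Ter-119, an erythroid antigen, was negative for AMPL365903 (r = -0.114, background 9.78%) and positive for AMPL376318 (r = 0.0612) and AMPL365981 (r = 0.0521), against a background of 6.58%. FceRIa, the IgE receptor of mast cells and basophils, was positive for AMPL388687 (r = 0.0787) and AMPL376318 (r = 0.0544), against a background of 6.24%. I-A/I-E, the class II molecules of antigen presenting cells, was positive for AMPL365903 (r = 0.0707), against a background of 8.77%. These values had limma adjusted p of 0.0120 to 0.0453.

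CD49f, integrin alpha 6, was the protein with the largest absolute r for 5 lower amplicons. It was negative for AMPL388687 (r = -0.141, SE 0.0176), AMPL365981 (r = -0.127, SE 0.0140), AMPL371479 (r = -0.109, SE 0.0184) and AMPL376318 (r = -0.0958, SE 0.0150), with limma adjusted p of 0.00384, 0.00280, 0.0100 and 0.00778. AMPL371788 was called too (r = -0.126, limma adjusted p = 0.0351), and AMPL371491 was not (r = -0.0836, limma adjusted p = 0.0984). The background was 12.6% negative, against 5 of the 10. With uncentred counts AMPL371788 had r = -0.0148 (limma adjusted p = 0.728), and it was not called without main mouse 3 or main mouse 4 (limma adjusted p = 0.163 and 0.175). AMPL376318 had -0.0435 with uncentred counts (limma adjusted p = 0.0680). Without the minimum of 100 UMI AMPL371479 had -0.0409 (limma adjusted p = 0.215) and AMPL388687 -0.0740 (limma adjusted p = 0.0575).

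c-Kit, the stem cell factor receptor, was negative for AMPL365990 (r = -0.144), AMPL371788 (r = -0.126), AMPL388687 (r = -0.0971), AMPL365981 (r = -0.0872) and AMPL365903 (r = -0.0568), at limma adjusted p of 0.00440 to 0.0478 and against a background of 22.9%. With uncentred counts the sign turned for AMPL365990 (0.0107) and AMPL371788 (0.0270), and AMPL388687 had -0.0161 and AMPL365981 -0.00899, none of them called (limma adjusted p of 0.244 to 0.702). Sca-1, a stem cell antigen, was positive for AMPL365990 (r = 0.157, limma adjusted p = 0.0408) and AMPL365981 (r = 0.0579, limma adjusted p = 0.0175), against a background of 21.6%. Sca-1 had r = 0.0735 for AMPL371788 (limma adjusted p = 0.0581) and 0.0141 for AMPL365903 (limma adjusted p = 0.725). Of the amplicons with no call, the largest absolute r was -0.0666 with ESAM for AMPL388628 (limma adjusted p = 0.0919) and 0.0352 with Sca-1 for AMPL376854 (limma adjusted p = 0.133).

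Protein counts of mature cells were used from 2 single libraries, without a test. In mature immune cells of marrow and spleen, AMPL376318 was read less often in cells with more CD11b, a myeloid integrin (r = -0.259), and more often in cells with more B220, a B cell protein (r = 0.152). AMPL365981 had -0.221 and 0.176, and AMPL371788 had -0.168 and 0.117. AMPL365903 had no r beyond -0.0384 with any of the 14 tags used there, which do not include CD27 or CD150. In mature myeloid cells of marrow and blood AMPL365903 had r of 0.158 with CD61, 0.156 with CD9, 0.120 with CD44, -0.121 with c-Kit, -0.105 with CD150 and -0.0329 with CD27. AMPL376318 had -0.182 with CD44, an adhesion receptor, and 0.143 with CD48 in those cells.

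Single cells of 1 library show which amplicons were methylated together. For each pair the phi coefficient was taken within a library, given read depth and detection of the 77 nearly constant amplicons. Over the 12 bone marrow libraries the 28 pairs of lower amplicons had a median phi of 0.0728, with means per pair from -0.0168 to 0.141, against a median of 0.0121 over 173166 pairs of the panel. Phi was above 0 in 12 of 12 libraries for 19 of the 28 pairs, and 16.2% of all pairs met that. With the share of other intermediate amplicons read in the cell as a further covariate the median was 0.0513, 25 of the 28 pairs kept the sign of their mean, and 11 were above 0 in 12 of 12 libraries. The 12 include the old and young libraries that chose the list, and phi depends on shares, to which panel pairs were not matched. These values, and those of other pairs below, are thus a description. In LARRY marrow libraries the median over lower pairs was 0.0518 to 0.0745, against 0.00949 to 0.0227 over all pairs. It was 0.0236 against 0.00830 in the native library, and 0.0520 against 0.00805 in the transplantation library. The closest pair was AMPL388628 with AMPL365903, at 0.141 on average and 0.0471 to 0.331 by library. AMPL376854 was the loosest of the 8, at 0.00773 to 0.0378 with the other lower amplicons.

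The pair of higher amplicons had a mean phi of 0.199, above the 99th percentile of the panel's pairs (0.177), and was positive in 12 of 12 libraries. It was highest in old library 2 (0.419), the LARRY replicate mice (0.280 and 0.247) and young library 2 (0.263), and lowest in the native library (0.0279). In old libraries 5.73% and 21.2% of cells had both, against 1.35% and 3.27% in young libraries. The products of the shares of the pair were 2.44% and 11.5% in old libraries, against 0.508% and 0.930% in young libraries. Where AMPL365990 was read, AMPL371788 was read in 34.2% and 55.7% of old cells, against 14.2% and 32.3% of young cells. Where AMPL365990 was not read, these were 10.6% and 14.4% of old cells, against 4.43% and 6.59% of young cells.

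Between sides, the 16 pairs of a lower with a higher amplicon had a median phi of 0.0176 and ranged from -0.0760 to 0.112. AMPL365903 with AMPL371788 was negative in 12 of 12 libraries (mean -0.0583, by library -0.165 to -0.0138), which 2.36% of all pairs were. AMPL376318 with AMPL371788 was positive in 12 of 12, at 0.112 on average, so that amplicons from opposite sides were read together. AMPL365981 with AMPL371788, and AMPL376854 with either higher amplicon, were also positive in 12 of 12. That makes 4 of the 16 pairs, against 16.2% of all pairs of the panel. With the share of other intermediate amplicons read in the cell as a further covariate, 12 of the 16 kept the sign of their mean. Then 1 was positive and 3 were negative in 12 of 12.

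Old and young libraries differed in the phi of opposite sides in both directions. It was lower in both old than in both young libraries for 8 of the 16 pairs, and higher for 4, while 19.6% and 22% of all pairs of the panel were. Phi depends on the shares that chose the list, so nothing is read from these counts. The median over the 16 pairs was -0.00284 and -0.0550 in old libraries, against -0.00116 and 0.00713 in young libraries. Of the 8 lower pairs, 7 contain AMPL365990. AMPL371491 with AMPL365990 had phi of -0.182 and -0.381 in old libraries, against -0.0827 and -0.0473 in young libraries. AMPL365903 with AMPL365990 had -0.165 and -0.348 in old libraries, against -0.0934 and -0.0316 in young libraries. Of the 4 higher pairs, 3 contain AMPL371788. AMPL376318 with AMPL371788 had 0.195 and 0.197 in old libraries, against 0.0572 and 0.0715 in young libraries. AMPL365981 with AMPL371788 had 0.128 and 0.120 in old libraries, against 0.0257 and 0.0329 in young libraries. AMPL376854 was higher in old libraries with both, at 0.0746 and 0.141 with AMPL365990, against 0.0319 and 0.0388 in young libraries.

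In shares, the lower amplicons read less often in cells with both higher amplicons than in cells with neither were 4 and 5 of the 8 in old libraries, against 4 and 2 in young libraries. These counts were not taken over the panel, so nothing is read from them. Only 90 and 272 cells of the young libraries had both read. In old libraries, cells with both higher amplicons read had AMPL365903 in 58.2% and 51.4% of cells, against 79.3% and 84.8% of cells with neither read. AMPL371491 was at 39.1% and 25.3% where both were read in old libraries, against 58.6% and 61.5% where neither was read. AMPL376318 went the other way in old libraries, at 33.0% and 18.9% where both were read, against 16.1% and 10.7% where neither was read. AMPL365981 did so too, at 33.7% and 26.6% where both were read in old libraries, against 24.9% and 22.5% where neither was read, and AMPL376854 at 13.5% and 25.6%, against 6.32% and 11.2%. In young libraries AMPL365903 was at 70.0% and 86.0% where both were read, against 89.6% and 91.9% where neither was read. AMPL371491 was lower there too, at 60% and 78.7%, against 73.6% and 81.5%. The amplicons that were higher in old libraries were also higher there. AMPL376318 was at 54.4% and 83.8%, against 41.9% and 69.1%. AMPL365981 was at 46.7% and 75.4%, against 44.6% and 58.6%, and AMPL376854 at 37.8% and 36.8%, against 35.7% and 28.3%. Cells with both read had more reads, with medians of 33776 and 63428 in old libraries, against 28864 and 45884 in cells with neither read. The part of depth in these shares was not tested.

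Among the lower amplicons the median phi was 0.106 and 0.158 in old libraries, against 0.0671 and 0.0476 in young libraries, while over all pairs of the panel the medians were 0.00597 and 0.0132 in old libraries, against 0.00784 and 0.00893 in young libraries. Phi was higher in both old than in both young libraries for 21 of the 28 pairs, and lower for 6, compared with 22% and 19.6% of all pairs of the panel. All 6 of those, and the 1 pair left, contain AMPL376854. Nothing is read from these counts either.

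Counted per cell, old libraries had a mean of 3.18 and 2.87 of the 8 lower amplicons read, against 4.72 and 5.73 in young libraries. These means follow from the shares that chose the list, and the counts of cells below depend on them, so nothing is read from either. Cells with 2 or fewer read made up 33.9% and 44.0% of old libraries, against 7.78% and 1.16% of young libraries. If amplicons were read independently at the same shares, these would be 28.5% and 38.9% in old libraries, against 3.73% and 0.263% in young libraries. The variance of the number read was 1.83 and 2.21 times that under independence in old libraries, against 1.495 and 1.36 times in young libraries. Read depth was not taken into account in these ratios, and they were not computed for other amplicons. The native library was at the other end, with 6.27 of 8 read on average, 0.114% of cells with 2 or fewer, and a variance ratio of 1.17.

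Each listed amplicon also went with the general level of a cell. The correlation with the share of other intermediate amplicons read (those at 25% to 90% on average, 404 on the panel) was positive in 12 of 12 marrow libraries for 9 of the 10. It was positive in 11 for AMPL371491 (median 0.0981). Medians for the others ranged from 0.137 at AMPL388687 to 0.210 at AMPL365981. The same was not computed for amplicons off the list, so these counts do not set the list apart from the panel.

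Outside the list, AMPL366093 was the closest partner of both higher amplicons in single cells, with mean phi of 0.298 with AMPL365990 and 0.224 with AMPL371788 and a positive value in every marrow library. AMPL366093 was itself read in 22.2% and 41.7% of old cells, against 15.3% and 20.5% of young cells. AMPL365903 had the closest partner of all, AMPL388659, at a mean phi of 0.437 (0.256 to 0.628 by library). AMPL365894 was the partner of both AMPL388628 (0.181) and AMPL371491 (0.128). AMPL365901 was that of AMPL365981 (0.191), AMPL371729 that of AMPL376318 (0.171), and AMPL366088 that of AMPL371479 (0.139). AMPL388687 had AMPL365823 (0.1004) and AMPL376854 had AMPL366081 (0.0725), the smallest of these values.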

How the data were processed

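DNA methylation was measured by scTAM-seq in 16 mouse libraries, with 1 table of reads per cell and amplicon each, deposited by the authors as counts that were not normalized. Protein tables of 6 libraries, used as deposited, hold, per the file headers, counts of UMI (unique molecular identifiers) for every cell and tag. The protein counts deposited for the lung myeloid and lung endothelial libraries were identical to each other, so neither was used. Per the submitters' processing notes the genome was mm10. Aligner, cell caller and cell filters: not given in the sources used here. Groups and replicate numbers come from the sample titles, and p-values measure the spread between libraries of those groups.

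The list of 10 amplicons and the proteins and tests used were chosen with earlier results of these data known. All 10 entered every comparison. Those not called are in part given only as a range or, for proteins other than CD150 and CD27, left out. Outside the list, those named are the amplicon with the largest mean phi per member, the 3 most alike in level per side, and the protein with the largest absolute correlation. All called pairs of a listed amplicon and a protein are given. The amplicons and tags named for mature cells, and the pairs named for opposite sides, were chosen after their values were seen.

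An amplicon was called in a cell at 1 read. Doublets were not called, and cells were not filtered except where an alternative leaves out the 5% with the most amplicons. Where 0 cells have a read, the upper limit on the share is 0.0886% for the library with fewest cells and 0.0298% for that with most. LARRY replicate and main libraries were compared with edgeR 4.0.16 (R 4.3.3, quasi-likelihood test) on cells that had a read and cells that had none, each library having its own intercept. Protein ranks came from centred log ratios of tags found in at least 5% of cells. Partial correlations within libraries were tested as Fisher z values with limma 3.58.1 over proteins measured in at least 3 libraries, adjusted over 11267 pairs. SE of r are on the Fisher z scale. Phi is the partial correlation of 2 read calls. Python 3.11.15, numpy 2.4.6 and scipy 1.17.1 were used, and DESeq2 1.42.0 for an alternative. The edgeR and limma tests, the partial correlations and phi were tried on simulated data, and the shares and the thinning were not. The alternatives were the number of reads that makes a call, thinning of reads, protein scaling, covariates and leaving out each library.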

Additional observations from a re-analysis of the deposited data

Results flagged for a closer look

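The correlation of AMPL365990 with CD150 was positive in the LARRY libraries and near 0, with a negative sign, in the native library. It was 0.127, 0.104 and 0.250 in the 3 stained LARRY libraries and -0.00427 in the native library, where this amplicon was read in 2.84% of cells. The difference was not tested, since there is 1 native library, and its protein counts were centred over fewer tags. Only the LARRY main group, with 4 libraries, was large enough to look for a library far from the rest, and at none of the 10 amplicons was there one.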

How the results depend on the processing

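The lack of overlap between old and young held at all 10 amplicons under every alternative run, though with 1 library left out it is a weak condition. The median phi within the lower amplicons and the phi of the higher pair kept their sign under all alternatives run, at 0.0448 to 0.0841 and 0.161 to 0.203, libraries left out aside, though 3 of the 28 lower pairs turned with the share of other intermediate amplicons as a covariate and 1 without the 5% of cells with the most amplicons. The median phi of lower with higher amplicons turned to -0.00280 without the 5% of cells with the most amplicons and to -0.0123 with the share of other intermediate amplicons as a covariate, and stayed at 0.0125 to 0.0262 with single libraries left out. For LARRY replicate against main, 1 amplicon was called at 5 reads, and 0 at 10 reads, with the median difference set to 0, with edgeR on summed reads and with DESeq2 on summed reads. Those 4 had 2, 4, 1 and 2 of the 10 at an unadjusted p below 0.05. Leaving out single libraries gave 0 to 3. The panel count went with it, at 46 higher at 5 reads, 2 at 10 reads, 9 with the median set to 0, 1 with edgeR and 24 with DESeq2 on summed reads, 4 without replicate mouse 2, and 98 to 288 with a main mouse left out. With CD150, uncentred counts gave 5 calls among the 10 and leaving out libraries 2 to 5. With CD27, uncentred counts gave 2 calls, also with total protein as a covariate, and leaving out libraries 2 to 6. The causes were not tested.

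With the mouse number as a replicate block, 0 of the 10 were called for LARRY replicate against main, and 14 amplicons of the panel were higher and 3 lower. Deviations of same-numbered mice correlated at -0.183 and -0.276. These values cannot decide whether same-numbered mice were paired, since such a correlation does not record how the mice were handled. The sample titles give only a number for each mouse. The block turned AMPL376318 to -0.0507, AMPL388687 to 0.0136 and AMPL365903 to -0.0281. Old against young has no test, so it has no paired analysis.

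The other sign changes for LARRY replicate against main were in amplicons that were not called. In log odds, AMPL376318 turned to -0.0815 at 2 reads, -0.118 at 5 reads, -0.113 at 10 reads and -0.0765 with thinning, and AMPL388628 to 0.0201 at 10 reads. With the median difference set to 0, AMPL376318 was at -0.414, AMPL365981 at -0.175, AMPL371491 at -0.339, AMPL376854 at -0.0565 and AMPL365903 at -0.337. On summed reads (log2 fold) edgeR gave -0.437, -0.153 and -0.102, and DESeq2 -0.459, -0.172 and -0.125, for AMPL376318, AMPL371491 and AMPL365903. With single libraries left out, AMPL376318 ranged from -0.00146 to 0.114, AMPL371479 from -0.108 to 0.101, AMPL388687 from -0.624 to 0.488, AMPL388628 from -0.119 to 0.0681 and AMPL371491 from -0.222 to 0.476.

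In the correlation with CD150, AMPL365981 turned to -0.00300 without the 5% of cells with the most amplicons, -0.00264 with thinning, -0.0219 with no minimum of UMI and -0.00292 without covariates. AMPL376854 turned to 0.00477 with thinning, 0.0263 uncentred and 0.0149 uncentred with total protein. Leaving out libraries gave -0.0170 to 0.0183 and -0.00495 to 0.00753 for these. With CD27, AMPL371491 turned to 0.00267 with thinning and 0.00604 without covariates, ranged from -0.00975 to 0.00170 with libraries left out, and AMPL365981 turned to 0.00947 uncentred. Called values that turned were AMPL365990 with CD27 (0.0452), AMPL365990 and AMPL371788 with c-Kit (0.0107 and 0.0270) and AMPL388687 with CD9 (0.0168), all uncentred, and AMPL365990 with CD201 (-0.00567) with no minimum of UMI. Alternatives for proteins other than CD150 and CD27 were chosen after seeing the data. Depth limits AMPL388687 most, whose old against young difference was -12.9 points at 5 reads and -5.16 at 10 reads.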
